A study of Drosophila melanogaster with 9 samples.

Results

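The genes described here are named as genes for proteins of the cytosolic ribosome of Drosophila melanogaster, measured by RNA sequencing of whole embryos. They were taken from the deposited gene table by symbol, as every row starting with RpL, RpS or RpLP and a digit, and 32 of 10221 rows did so. Of these, 11 were counted by name with the small subunit and 21 with the large one, the 3 stalk genes RpLP0, RpLP1 and RpLP2 among the large. The large also include RpL24-like and RpL7-like, whose yeast relatives are assembly factors of the large subunit. In the current Ensembl annotation of the fly 92 gene names fit the same rule. Of these 31 were matched to rows of the table, RpL37a had no unambiguous match, and the others were not analysed here. The 32 therefore cover only some of the ribosome's genes, and RpS6 and RpS5a are among those not analysed here.

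The embryos were collected from stage 16 up to the stage labelled AFT, and each collection held more than 200. All groups shared the Gal4 driver Insc-Gal4, made from the inscuteable gene, which is active in neuroblasts, the stem cells of the fly nervous system. Control embryos had the driver heterozygous over OregonR chromosomes. Quad embryos expressed UAS transgenes of the transcription factors ase, Kr, wor and SoxN under this driver, and Hexa embryos expressed those 4 plus hb and nub. There were 3 libraries per genotype, labelled as biological replicates, and 9 in all. Embryos with transgenes but no driver are not part of the comparison. The labels give each genotype its own experiment and the protocol gives each experiment its own sequencing lane, so genotype, stock background and experiment cannot be told apart. The headers of the linear RPKM columns of 2 controls name another driver, da, a conflict that could not be resolved, and those columns were not used.

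A ribosome is built from a small subunit that reads the mRNA and a large subunit that forms the peptide bond, and most of its proteins are present once in each ribosome. The mRNAs of these proteins are among the most abundant in growing cells and tend to vary together. In flies, losing 1 copy of many of these genes gives the Minute phenotype of slow growth and thin bristles. Several of the proteins are encoded by more than 1 gene, and in flies the second copies are often known from the ovary or the testis.

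Deposited counts summed to between 8555639 and 11687961 reads per library, with the fewest in Hexa 1 (8555639) and Hexa 2 (9083822). The library totals implied by RPKM were far larger than these counts in every library. They were again lowest in Hexa 1 and Hexa 2, with Hexa 2 the lowest. The median of the abundant members, given below, was highest in these same libraries. The part of sequencing depth in the values of the members was not tested. Of the 31 members with an annotated transcript length, 12 had a count equal within 10% to the reads implied by their RPKM. These are the members with 1 annotated transcript, the kind of gene from which the implied reads were estimated. In contrast, 17 members had under 10% of the implied reads. RpS5b, for example, had 14 counted reads over all libraries where its RPKM implies 60022. Levels are therefore given as the authors' RPKM (reads normalised to transcript length and library size). The cell types of an embryo were present by their markers in every library: muscle markers summed to 8376 to 10627 RPKM, glial markers to 208 to 255 and neuroblast markers to 34.8 to 75.3. Heat shock genes stood apart in Hexa, where the mean of 16 such genes was 0.84, 2.28 and 2.62 above the control mean on the log2 scale in libraries 1, 2 and 3. It lay between -0.66 and 0.41 in the controls and between -0.83 and 0.74 in Quad. Cell type markers moved as well: in Hexa 6 of 7 tested blood cell and fat body markers fell, 5 of 6 neuroblast markers rose, the transgenes ase and wor among them, and of 6 midgut markers 2 rose and 1 fell. In Quad 4 of 6 neuroblast markers rose, again with ase and wor, and 2 of 6 midgut markers fell. By the same limma test, given below, 19.1% of all tested genes rose and 13.1% fell in Hexa, against 2.16% and 2.52% in Quad. Of 4 muscle markers 1 fell in Hexa and 0 in Quad. Of the 4 glial and 2 neuron markers 0 passed in either genotype. The part of these cell types and of heat shock in the values of the ribosomal protein genes was not tested beyond the alternatives given below.

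Most of the ribosomal protein mRNAs were very abundant, and a gap separated them from a small group of low ones. The members above 500 RPKM on average over all 9 libraries were 23 in number, from RpS14b at 946 RPKM to RpL41 at 7315. RpL41, which encodes a very short peptide of the large subunit, had 8837, 6351 and 8593 RPKM in the controls. In Quad it had 5887, 6344 and 6224, and in Hexa 8120, 8618 and 6858. Next in level were RpL31, a protein near the exit of the peptide tunnel (3297 RPKM over all libraries), and RpLP2 of the stalk that recruits elongation factors (3241 RPKM). The highest small subunit member was RpS30, made as a fusion with a ubiquitin-like protein (2761 RPKM). The 32 genes together made up 21.5%, 17.0% and 22.3% of the summed RPKM of the whole table in the controls. Their share was 20.3%, 18.8% and 20.2% in Quad and 23.6%, 22.7% and 21.6% in Hexa, so Hexa 3 lay below control 3. The summed RPKM itself was 251675, 231645 and 257087 in the controls and 275681, 304309 and 260966 in Hexa.

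Below the gap stood 9 members. RpL24-like and RpL7-like, whose yeast relatives Rlp24 and Rlp7 are assembly factors of the large subunit and not parts of the finished ribosome, averaged 213 and 83.9 RPKM. RpS15Ab and RpS5b, each with a sister gene that is not analysed here, averaged 124 and 85.9 RPKM. The remaining 5 stood under 4 RPKM: RpL22-like at 3.45, RpS10a at 2.66, RpL37b at 2.58, RpS28-like at 0.61 and RpS28a at 0.1. RpS28a was at 0 in 3 libraries and was the only member below the filter of 0.5 RPKM in at least 3 libraries, so 31 members were tested.

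**Figure D1:**
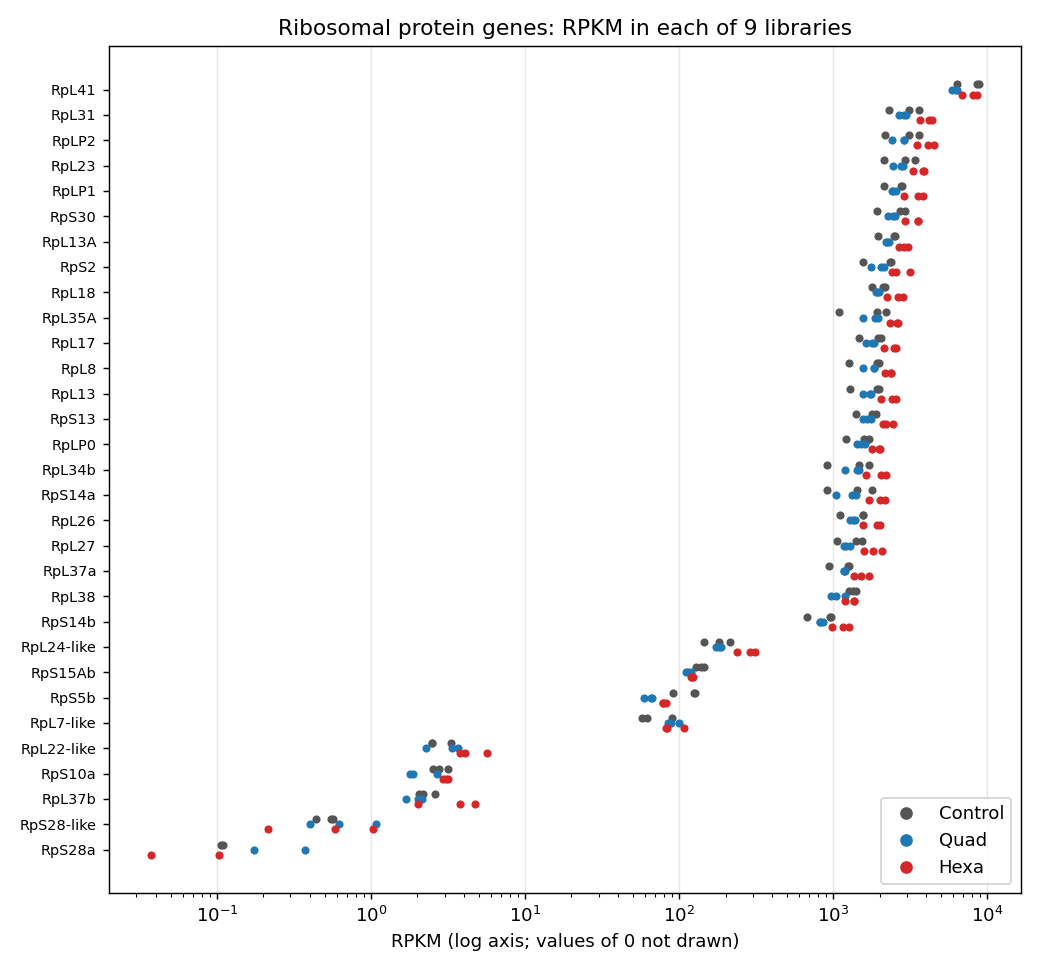
RPKM of 31 of the 32 ribosomal protein genes on a log axis, with 1 point per library coloured by group and genes ordered by their mean over all 9 libraries. The 22 genes from RpS14b upwards stand at 679 RPKM or more in every library, and the 9 below them at 310 RPKM or less.

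The abundant members moved together from library to library, also within a genotype. Each gene was set against its own median over the 9 libraries on the log2(RPKM + 0.1) scale. The median of the 23 abundant genes was then 0.00, -0.44 and 0.08 in the controls, -0.10, -0.26 and -0.13 in the Quad libraries and 0.32, 0.41 and 0.13 in those of Hexa. Control 2 was thus the lowest library and Hexa 2 the highest, and the other controls lay between Quad and Hexa. Control 2 was the lowest library for 21 of the 23. Hexa 1 or Hexa 2 was the highest for 21, and Hexa 2 alone for 17. Over all tested genes the highest library was Hexa 1 for 14.1% and Hexa 2 for a further 22.4%. Counted over all 31 tested members, control 2 was the lowest library for 23, against 18.2% of all 6190 tested genes, and Hexa 2 was the highest for 20, against 22.4% of all tested genes.

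Both subunits followed this course. The 6 abundant genes of the small subunit had a median of -0.49 in control 2 and 0.43 in Hexa 2, and the 17 of the large subunit -0.43 and 0.40. In RPKM, the small subunit genes had a median of 2062, 1484 and 2134 in the controls, 1933, 1659 and 1843 in the Quad libraries and 2364, 2788 and 2251 in those of Hexa. The large subunit genes had a median of 1924, 1289 and 2037 in the controls, 1843, 1566 and 1840 in the Quad libraries and 2491, 2571 and 2171 in those of Hexa. The order of the libraries was therefore nearly the same for the subunits, and no library was high for one and low for the other. Single genes differed in how far they moved. RpL35A, a large subunit protein, had 1924, 1082 and 2206 RPKM in the controls and deviated the furthest of the abundant genes in control 2, by -0.85. RpL18, also of the large subunit, had 2171, 1786 and 2093 RPKM there.

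**Figure D2:**
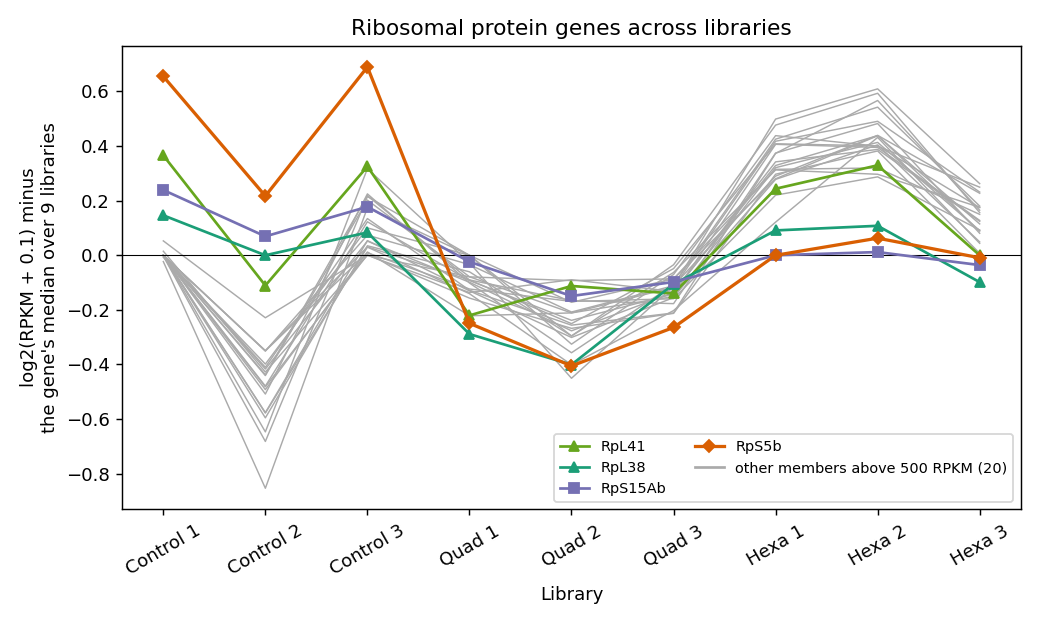
Deviation of each gene from its own median over the 9 libraries, in log2(RPKM + 0.1), where lines only join the points of 1 gene. The grey lines of 20 abundant genes dip in control 2 and stand highest in Hexa 1 and Hexa 2, while RpS5b (orange) is highest in control 1 and control 3 and lowest in Quad.

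The comparison of Quad with the control asks what differs in embryos in which 4 neuroblast factors were misexpressed. Among ribosomal protein genes 1 of 31 passed the test, RpS5b, which fell. Of all 6190 tested genes, 4.68% passed, 2.16% as higher and 2.52% as lower. The test was limma over all tested genes and 9 libraries, with Benjamini-Hochberg adjustment and a threshold of 0.05 for the adjusted p. The median log2 fold change of the 31 was -0.05, beside 0.02 over all tested genes, with 22 negative and 9 positive, where 52.8% of all tested genes were positive. At an unadjusted p under 0.05, 4 members were lower and 0 higher, where 10.6% of all tested genes were lower and 9.14% higher. The median depended on the controls: it was -0.22 without control 2, 0.02 without control 1 and 0.06 without control 3. Without control 2 and Hexa 2 together RpL41 was called lower as well (log2 -0.50, limma adjusted p = 0.0243).

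RpS5b encodes a second form of the small subunit protein S5, and in flies this copy is known for its expression in the ovary. Its level was 124, 91.5 and 127 RPKM in the controls. In Quad it was 66.2, 59.4 and 65.5 RPKM, and in Hexa 78.7, 82.2 and 78.2. All 6 libraries of the misexpression genotypes lay below all 3 controls, and the 3 Quad libraries lay below the 3 of Hexa. RpS5b fell by 0.83 on the log2 scale in Quad (± 0.14 SE, limma adjusted p = 0.00883), from 114 ± 19.9 to 63.7 ± 3.77 RPKM (SD, n = 3). In Hexa it fell by 0.51 (± 0.14 SE, limma adjusted p = 0.0254), to 79.7 ± 2.20 RPKM. Hexa and Quad did not differ past the threshold (log2 0.32 ± 0.14 SE, limma adjusted p = 0.108). Both comparisons with the control use the same 3 control libraries.

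The fall in Quad passed in all 18 alternative analyses that could test the gene, with an adjusted p of at most 0.0467. In Hexa the difference was negative in all 18, from log2 -0.83 to -0.42, but it did not pass in 5 of them. These were without control 1 (log2 -0.44, adjusted p = 0.0822), without control 3 (-0.42, 0.0689), without Hexa 1 (-0.50, 0.0681), in a fit of the 2 groups alone (-0.51, 0.071) and with the heat shock mean as a covariate (-0.73, 0.0609). Since the count column holds 0 to 5 reads of RpS5b per library, both calls rest on RPKM alone. How reads shared with the sister gene RpS5a were assigned is not given in the sources used here.

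RpS5b departed from the course of the abundant members in every library of both misexpression genotypes. Set against their median in the same library, and relative to the control mean, it stood at 0.01, 0.03 and -0.04 in the controls on the log2 scale. It stood at -0.83, -0.76 and -0.85 in Quad and at -1.02, -1.0 and -0.83 in Hexa. Control 2, where its RPKM was lowest among the controls, was no exception on this relative scale, and the abundant members were low there too. This is a description, since the reference genes were chosen for their level after the values were seen.

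RpS5b is known from the ovary, so markers of germ cells were examined beside it. Of 16 germline markers 13 had a row and 10 were tested. In Quad 0 of the 10 passed in limma, and 0 had an unadjusted p under 0.05. Their summed level was 114, 121 and 106 RPKM in the controls and 120, 120 and 126 RPKM in Quad. In Hexa 2 of the 10 fell, gcl and ovo, where 13.1% of all tested genes fell, and 5 of the 10 had a positive fold change. The sum in Hexa was 85.5, 84.1 and 102 RPKM. In every library gcl and tud made up most of the sum, at 73.2 and 22.2 RPKM in control 1. The germ cell gene vas, which encodes an RNA helicase, had 3.14, 2.81 and 3.52 RPKM in the controls, 2.91, 2.72 and 3.35 in the Quad libraries and 4.47, 3.79 and 4.12 in those of Hexa. Its values were highest in Hexa. None of the 13 was at 0 in all libraries, the lowest being osk at 0.0502 to 0.303 RPKM. The 8 ovary and egg markers, led by the yolk protein gene Yp3, summed to 1.73 to 1.82 RPKM in the controls, 1.88 to 2.61 in Quad and 2.81 to 4.08 in Hexa. In RNA from whole embryos, fewer cells of a type and less RNA per cell cannot be told apart.

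**Figure D3:**
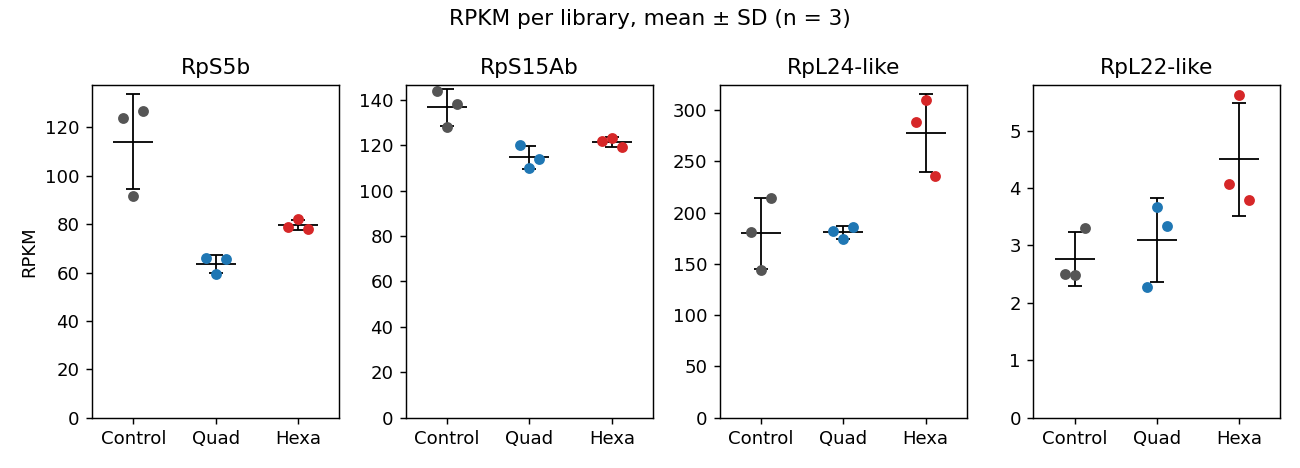
RPKM of RpS5b, RpS15Ab, RpL24-like and RpL22-like in each library (points), with the mean and SD of 3 libraries per group (bars); the vertical axes start at 0. RpS5b stands at 91.5 to 127 RPKM in the controls, above all Quad and Hexa libraries, whereas RpL24-like is highest in Hexa.

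The other 3 members without overlap were lower in every Quad library than in every control but did not pass the test. With RpS5b they made 4 of 31, where 15% of all tested genes had no overlap in that direction. In the other direction 0 members had no overlap, against 15.2% of all tested genes. RpL38, a large subunit protein known in mice for its part in translating Hox mRNAs, had 1410, 1274 and 1350 RPKM in the controls. In Quad it had 1043, 965 and 1184 RPKM (log2 -0.34 ± 0.13 SE, limma adjusted p = 0.181). RpS15Ab, 1 of 2 genes for the small subunit protein S15A, had 144, 128 and 138 RPKM in the controls. In Quad it had 120, 110 and 114 (log2 -0.25 ± 0.10 SE, limma adjusted p = 0.201). RpL41, whose levels are given above, differed by log2 -0.35 ± 0.16 SE in Quad (limma adjusted p = 0.275), and its lowest control and its highest Quad library differed by only 6351 against 6344 RPKM.

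In Hexa none of these 3 had all libraries above the controls. RpL38 stood at 1357, 1373 and 1190 RPKM (log2 -0.04, limma adjusted p = 0.794) and RpL41 at a log2 difference of 0.00 (limma adjusted p = 0.990). RpS15Ab had 122, 123 and 119 RPKM, below all 3 controls (log2 -0.17, limma adjusted p = 0.188). Relative to the median of the abundant members in the same library, RpL38 stood at -0.48, -0.51 and -0.47 in Hexa on the log2 scale. On the same relative scale RpL41 stood at -0.45, -0.41 and -0.49 and RpS15Ab at -0.66, -0.69 and -0.49. Their controls ranged from -0.20 to 0.25 on that scale. RpL41 in Quad ranged from -0.48 to -0.13, and RpL38 in Quad from -0.43 to -0.24. RpS15Ab in Quad stood at -0.24, -0.14 and -0.32 and overlapped its controls, which reached down to -0.19.

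The comparison of Hexa with the control asks the same for the 6-factor misexpression. Of 31 members 2 rose, RpL24-like and RpL22-like, and 1 fell, RpS5b. RpL24-like is a member by its name, and its yeast relative is an assembly factor and not a part of the finished ribosome. Over all tested genes 32.3% passed, 19.1% as higher and 13.1% as lower, so the members' share was smaller than that of the table. The direction was nonetheless nearly common to them: 27 of 31 had a positive fold change, against 51.3% of all tested genes. The median log2 fold change was 0.41, beside 0.03 over all tested genes, and the middle of the members' range was narrow, with quartiles of 0.35 and 0.46. At an unadjusted p under 0.05, 22 members were higher and 1 lower, where 27.6% and 22.8% of all tested genes were, 50.4% in all. In 19 members every Hexa library exceeded every control, against 28% of all tested genes, and in 2, RpS5b and RpS15Ab, every Hexa library lay below, against 23.7%.

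RpS13, a protein of the small subunit, had the smallest adjusted p among the abundant members, and a fold change at their median of log2 0.41. It had 1789, 1403 and 1883 RPKM in the controls and 2187, 2426 and 2094 in Hexa (log2 0.41 ± 0.15 SE, limma adjusted p = 0.0547). RpL31 had 3112, 2293 and 3580 RPKM in the controls and 4157, 4373 and 3654 in Hexa (log2 0.46 ± 0.17 SE, limma adjusted p = 0.0659). In both, the groups did not overlap, and the lowest value was that of control 2. The 3 stalk genes gave differences of like size. RpLP0, which anchors the stalk on the ribosome, stood at 1591, 1213 and 1714 RPKM in the controls and 1989, 1996 and 1774 in Hexa. The adjusted p of RpLP0, RpLP1 and RpLP2 lay between 0.0631 and 0.0855, at log2 differences of 0.36 to 0.48. The difference between the subunits was not tested: the median log2 fold change was 0.39 over the 10 tested small subunit genes and 0.42 over the 21 large subunit genes, where Quad had -0.08 and -0.04. Of the other abundant members 15, RpL8, RpL13, RpL13A, RpL17, RpL18, RpL23, RpL26, RpL27, RpL34b, RpL35A, RpL37a, RpS2, RpS14a, RpS14b and RpS30, had log2 fold changes of 0.31 to 0.60 in Hexa and of -0.11 to 0.10 in Quad, and 0 of them were called in either (limma, 14 and 0 of them at an unadjusted p under 0.05).

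The values of the Hexa comparison depended on single libraries. Without Hexa 2, the number of members with an unadjusted p under 0.05 went from 23 to 3, without Hexa 1 to 4 and without control 2 to 4. With all 9 libraries it was 5 after TMM scaling of RPKM and 3 with library medians set equal, where the median fold change was 0.37 and 0.31. With adjusted p, 9 members were called higher without control 3, and 7 higher and 1 lower without Hexa 3. Without control 1 or Hexa 1 no member was called (limma, with 17 and 4 at an unadjusted p under 0.05). With control 2 and Hexa 2 both left out, the median of the members was log2 0.19 and RpS5b was the 1 member called.

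Transcript length moved with these libraries as well. The tested members with an annotated length have a median transcript of 686 bases, against 1603 for all tested genes with one, and 27 of these 30 members are at or under 1000 bases. The 1648 tested genes of that length class stood at 0.15, 0.47 and 0.08 in Hexa 1, 2 and 3 relative to each gene's median, on the log2 scale. The 1592 genes over 2500 bases stood at -0.15, -0.41 and -0.06. In control 2, where the members stood at -0.42, the short class stood at -0.03. After the trend of each library with transcript length was subtracted, a step chosen after the data had been seen, the median of the members in Hexa was log2 -0.07, beside -0.10 over all tested genes, and 0 of them were called higher. Under it 4 were called lower in Hexa, RpS5b (log2 -0.83, limma adjusted p = 0.00407), RpS15Ab (-0.61, 0.00528), RpL38 (-0.49, 0.0243) and RpL41 (-0.64, 0.0342). The libraries still differed after this step. The median of the members stood at 0.25, -0.34 and 0.22 in the controls, at 0, -0.21 and 0 in Quad and at 0.04, -0.03 and -0.04 in Hexa. When the heat shock mean was entered as a covariate, no member was called in Hexa (2 at an unadjusted p under 0.05), while the median was log2 0.24 and 27 of 31 fold changes were positive.

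**Figure D4:**
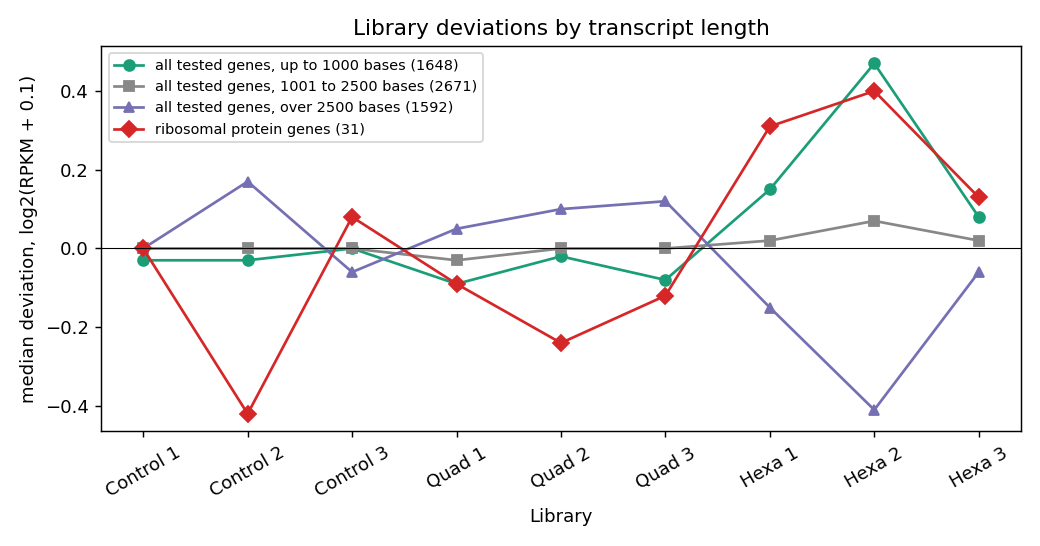
Median deviation of tested genes from their own median over the 9 libraries, in log2(RPKM + 0.1), for 3 classes of transcript length and for the 31 tested ribosomal protein genes. In Hexa 1 and Hexa 2 short genes and ribosomal protein genes are both high, while in control 2 the ribosomal protein genes stand at -0.42 and the short genes at -0.03.

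Both members called higher in Hexa lie below the abundance gap. RpL24-like had 181, 144 and 214 RPKM in the controls, 182, 174 and 186 in the Quad libraries and 288, 310 and 236 in those of Hexa. All 3 Hexa libraries lay above the other 6, a rise by log2 0.64 ± 0.16 SE over the control (limma adjusted p = 0.0210) and by 0.61 ± 0.16 over Quad (limma adjusted p = 0.0300). It has 1 annotated transcript, and its counts hold all the reads implied by its RPKM. The Hexa call was lost in 9 of 20 alternatives, among them without control 1, Hexa 1 or Hexa 2 (adjusted p = 0.0547 to 0.0625) and with the length trend removed (log2 0.23, adjusted p = 0.245). The call against Quad was lost in 11 of 20, including each fit without a single library of Quad (adjusted p = 0.079 to 0.0926), without Hexa 1 (0.082) or Hexa 2 (0.0841), and with the replicate block (0.0605). Relative to the abundant members it stood at -0.09, 0.03 and 0.06 in the controls, at -0.02, 0.14 and 0.01 in Quad and at 0.20, 0.26 and 0.11 in Hexa, so that on this scale Quad 2 lay above Hexa 3.

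RpL22-like, a relative of RpL22 known in flies from the testis, had 2.5, 2.49 and 3.30 RPKM in the controls. It had 2.28, 3.67 and 3.34 RPKM in Quad and 4.07, 5.63 and 3.80 in Hexa, above all controls. The rise was log2 0.68 ± 0.22 SE (limma adjusted p = 0.0447), and the difference was log2 0.44 to 0.82 in 19 alternatives. It did not pass in 14 of them, with an adjusted p of up to 0.194 with the heat shock covariate, where it was log2 0.82. It did not pass without any 1 of control 1, control 2, Hexa 1 or Hexa 2. RpL7-like stood at 61.5, 57.1 and 90 RPKM in the controls and at 81.9, 83.1 and 108 in Hexa (log2 0.41, limma adjusted p = 0.107). In Quad it had 85.1, 100 and 88.0 RPKM (log2 0.42, limma adjusted p = 0.255), so the groups overlapped in both comparisons.

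**Figure D5:**
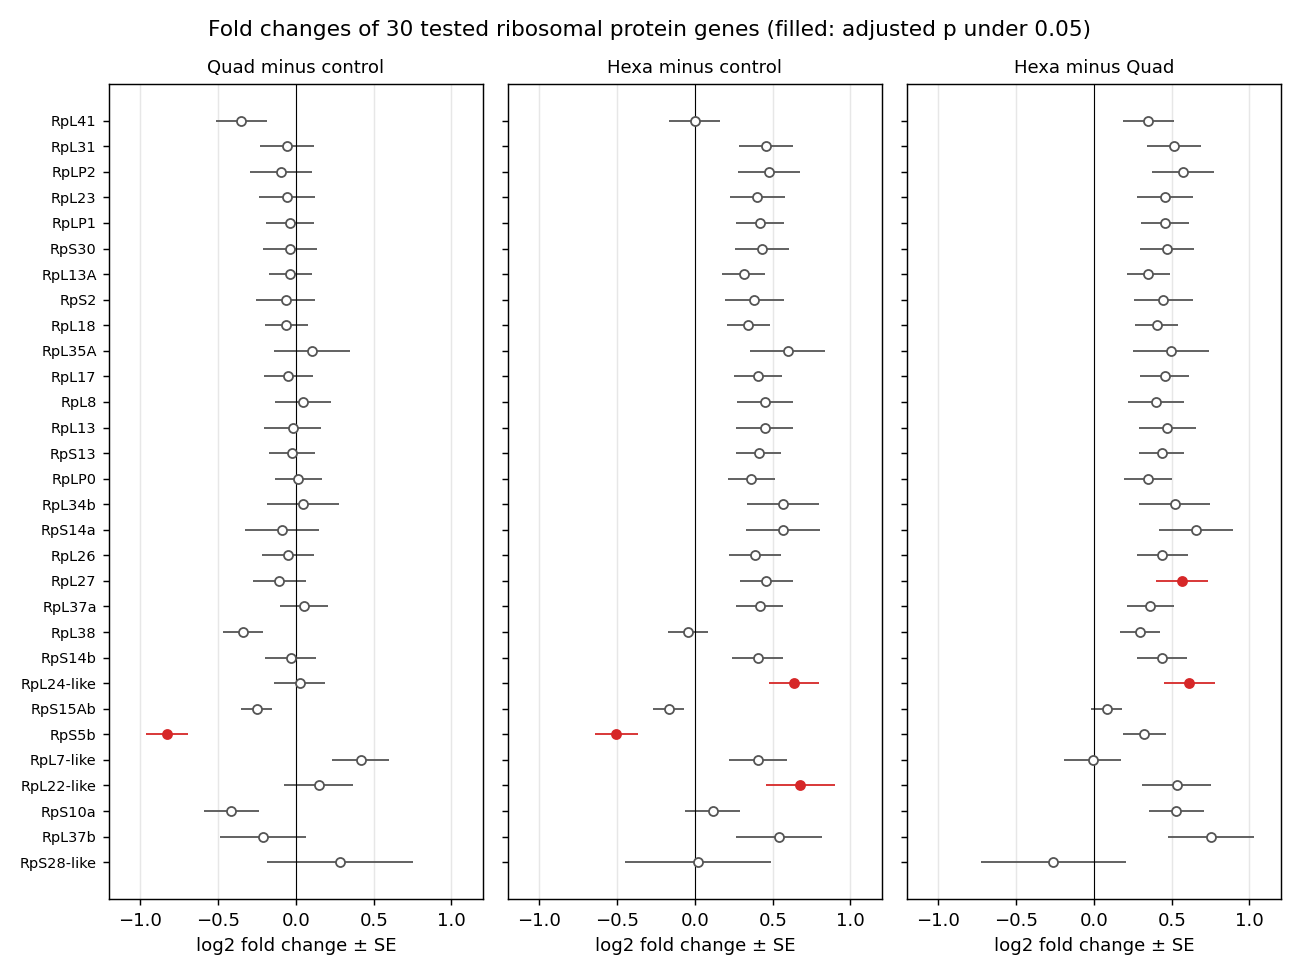
Log2 fold changes with their standard errors for 30 of the 31 tested ribosomal protein genes, ordered by mean RPKM, in the 3 comparisons; filled red points passed an adjusted p of 0.05. RpS5b is the filled point left of 0 in Quad and in Hexa, and most abundant genes lie near 0.41 in Hexa without passing.

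Hexa was set against Quad to show what differs when hb and nub join the 4 factors. Of 31 members 2 were higher in Hexa, RpL24-like and RpL27, and 0 lower, where 23.1% of all tested genes passed, 13.5% as higher and 9.63% as lower. RpL27, a large subunit protein, had 1283, 1174 and 1211 RPKM in Quad and 1816, 2077 and 1572 in Hexa (log2 0.57 ± 0.17 SE, limma adjusted p = 0.0409). Its call was lost in 11 of 20 alternatives, including each fit that left out a Quad library, Hexa 1 or Hexa 2. The number of members called was 0 without Quad 1, Quad 2, Hexa 1 or Hexa 2 (limma, 7 to 13 at an unadjusted p under 0.05), 1 without Quad 3 and 11 without Hexa 3. In 27 members every Hexa library exceeded every Quad library, against 28.6% of all tested genes, and in 0 every one lay below, against 22.2%. At an unadjusted p under 0.05, 25 members were higher and 0 lower, against 22.7% and 18.3% of all tested genes, 41.1% in all. The difference was positive for 29 members, against 54.8% of all tested genes. The median log2 difference was 0.46, beside 0.06 over all tested genes. Control 2 has no part in these differences except in the shared estimate of the spread. In a fit of the 2 groups alone 16 members were called, all higher, while with the length trend removed 0 were called (1 at an unadjusted p under 0.05) and the median was 0.06.

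Where the table holds 2 genes for 1 protein, the copies could be set side by side. RpS14a and RpS14b, near-identical neighbours with no gene between them in the RefSeq annotation (Release 6), encode a protein of the small subunit platform. RpS14b made up 40.1%, 42.7% and 35.1% of their summed RPKM in the controls, 36.9%, 44.1% and 39.5% in the Quad libraries and 36.4%, 36.7% and 36.6% in those of Hexa. These shares overlap between the groups, and reads of the copies can be confused. RpL37a carried nearly all of the RPKM of its pair: RpL37b made up 0.143% to 0.279% of the sum in any library. RpL37b had 2.16, 2.04 and 2.62 RPKM in the controls and 3.79, 4.76 and 2.03 in Hexa (log2 0.54 ± 0.28 SE, limma adjusted p = 0.141), with Hexa 3 below all controls. RpS10a, a copy known in flies from the testis, had 1.87, 1.79 and 2.68 RPKM in Quad against 2.52, 3.17 and 2.76 in the controls (log2 -0.41, limma adjusted p = 0.238). RpS28-like ranged from 0.215 to 1.07 RPKM, and its lowest and one of its highest values both came from Hexa. Of 6 testis markers with a row 3 were tested. Of these betaTub85D rose in Quad, and in Hexa betaTub85D rose and bol fell.

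In 5 other lists, of ribosome production and translation, the median log2 fold change was below 0 in both genotypes. It was -0.04 in Quad and -0.70 in Hexa for the 1 elongation and termination factor, -0.10 and -0.15 for initiation factors and -0.10 and -0.18 for assembly and nucleolar factors. It was -0.07 and -0.46 for RNA polymerase I and -0.22 and -0.14 for mitochondrial ribosomal proteins. As a class, genes over 2500 bases also stood low in Hexa, and the part of transcript length in these lists was not tested. All 3 tested of 4 genes of RNA polymerase I, which transcribes ribosomal RNA, fell in Hexa. They were RpI135 (9.45 to 6.72 RPKM, log2 -0.48, limma adjusted p = 0.0270), the initiation factor gene Tif-IA (47.7 to 34.7 RPKM, log2 -0.44, limma adjusted p = 0.0412) and RpI1 (16.4 to 11.9 RPKM, log2 -0.46, limma adjusted p = 0.0424). Of 13 tested of 33 assembly and nucleolar factors 1 rose and 1 fell. The fallen gene was Nopp140, a nucleolar phosphoprotein (58.1 to 44.6 RPKM, log2 -0.38, limma adjusted p = 0.0490). The risen gene, Rrp1, encodes a DNA repair endonuclease in the fly and stands in that list only by its name. Of 12 mitochondrial ribosomal protein genes 3 fell and 0 rose (limma, 4 and 0 at an unadjusted p under 0.05), and mRpS11 fell from 62.7 to 38.2 RPKM (log2 -0.71, limma adjusted p = 0.00149).

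Of 6 tested initiation factor genes 2 fell, the scaffold gene eIF4G (99.1 to 63.0 RPKM, log2 -0.64, limma adjusted p = 0.0226) and eIF-4B (log2 -0.34, limma adjusted p = 0.0259). Elf, which encodes a release factor of translation termination, was the only tested gene of 10 in its list and fell from 55.3 to 34.0 RPKM (log2 -0.70, limma adjusted p = 0.0145). Against Quad, mRpS11 (log2 -0.67, limma adjusted p = 0.0038), eIF4G (-0.63, 0.0303) and Elf (-0.66, 0.0236) were lower in Hexa as well. The medians of Hexa against Quad were nonetheless positive in 3 of the 5 lists, at log2 0.03 for initiation factors, 0.03 for assembly factors and 0.12 for mitochondrial ribosomal proteins, with 8 of 12 positive. Beside the counts against the control, 13.1% of all tested genes fell and 19.1% rose. In Quad 0 genes of these 5 lists passed in limma. At an unadjusted p under 0.05 in Quad, 1 assembly factor was higher and 3 mitochondrial ribosomal protein genes lower. The 3 tested regulators of growth and ribosome stress, a further list, had positive medians, log2 0.04 in Quad and 0.25 in Hexa. They gave 0 calls in either genotype (limma, with 1 higher in Hexa at an unadjusted p under 0.05).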

How the data were processed

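The authors deposited 1 table of 10221 genes with, per the file headers, raw read counts per library, linear RPKM and log2 RPKM. Aligner, counter, genome build and annotation are not given in the sources used here, and coordinates are left out. The 9 count and 9 log2 RPKM columns were used, and 9 linear RPKM columns were not, because of the conflict in their headers. A log2 RPKM of -10.86, the lowest value of the file, was set to 0 RPKM. Groups come from the sample titles. A gene was tested if 3 or more libraries reached 0.5 RPKM, which 6190 did. The test was limma 3.58.1 (trend and robust moderation, R 4.3.3) on log2(RPKM + 0.1), all 9 libraries in 1 model. This scale understates changes of low genes. The scripts were tested on simulated data first. In a simulated Quad against control, limma recovered 26.9% of changes of 1.5-fold, 49.3% of 2-fold and 89.4% of 4-fold. Changes of 1.5-fold were thus mostly missed there. The simulated noise was independent between genes and libraries. It therefore did not model shifts that the members share by library, nor the comparisons with Hexa. Alternatives were edgeR 4.0.16 on the deposited counts, which hold few reads of many members, TMM scaling, other pseudocounts and filters, a replicate block, a heat shock covariate and each library left out.

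The members, gene lists and tests were chosen with earlier results of these data known. The rule for named genes took members called in any comparison, the highest and lowest members, paralog pairs, stalk genes and up to 3 called genes per list. Other members shown as examples were chosen after their values were seen. Transcript lengths come from the current Ensembl annotation, matched by symbol or synonym. Counts and medians are over all tested members, and 1 member is not reported here singly.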

Additional observations from a re-analysis of the deposited data

How the results depend on the processing

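The fall of RpS5b in Quad kept its direction and its side of the threshold in all 18 alternatives that could test it. Over the tested members and comparisons, 1718 of 1833 values under an alternative kept their side of the threshold. A call was lost in 50 and gained in 65, and 0 called values changed sign. Most of the values had no call in the main fit and so none to lose. The lost calls all fell on the few called values. In Hexa a call was lost in 5 of 18 alternatives for RpS5b, 9 of 20 for RpL24-like and 14 of 19 for RpL22-like. Against Quad it was lost in 11 of 20 for RpL24-like and 11 of 20 for RpL27. Values without a call could change sign: RpL38 in Hexa against Quad went from log2 0.30 to -0.19 in edgeR with TMM. Members called numbered 1 in Quad (in edgeR, which cannot test RpS5b, this was RpL27), 3 in Hexa and 2 in Hexa against Quad. Leaving out each library in turn gave 1 in Quad, 0 to 9 in Hexa and 0 to 11 in Hexa against Quad. For Hexa against control the count was 1 with library medians set equal and with edgeR after TMM, and 0 in a fit of the 2 groups (3 at an unadjusted p under 0.05) or with the heat shock covariate (2 unadjusted). For Hexa against Quad it was 1 without a filter, with TMM factors on RPKM and in both edgeR fits, 6 with a filter of 5 RPKM and 16 in the fit of the 2 groups. It was 0 with library medians set equal (4 unadjusted), with the replicate block (19 unadjusted), with the heat shock covariate (0 unadjusted) and with the length trend removed (1 unadjusted). Without control 2 and Hexa 2 together, chosen after seeing the data, the counts were 2 in Quad, 1 in Hexa and 18 in Hexa against Quad.

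The median of the members in Hexa was log2 0.41 and became 0.11 in both edgeR fits, 0.19 without control 2 and Hexa 2, 0.24 with the heat shock covariate and -0.07 with the length trend removed. Hexa against Quad was 0.46 and became 0.29 with the covariate, 0.32 and 0.28 in edgeR with TMM and with total counts, and 0.06 with the length trend removed. Leaving out each library gave -0.22 to 0.06 in Quad, 0.25 to 0.49 in Hexa and 0.38 to 0.54 in Hexa against Quad.

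Over all genes the calls were 290 in Quad, 1997 in Hexa and 1431 in Hexa against Quad, and leaving out each library gave 132 to 331, 962 to 2199 and 442 to 1840. In Hexa they were 925 in the fit of the 2 groups, 574 with the heat shock covariate, 1033 in edgeR with TMM and 921 with total counts. In Hexa against Quad they were 882 with the replicate block, 356 with the covariate, 686 in edgeR with TMM and 534 with total counts. In Quad they were 455 with the length trend removed and 831 without control 2 and Hexa 2. The split of higher and lower calls moved with the scaling: 1184 and 813 in Hexa became 871 and 1397 with library medians set equal, 134 and 156 in Quad became 116 and 217, and 835 and 596 in Hexa against Quad became 730 and 841 with TMM factors. The cause of these shifts was not tested. Libraries of the same number were weakly correlated in their deviations (-0.15 to 0.18), and 5 of 9 libraries were closest to one of their own number. With 3 libraries per group these values cannot settle whether libraries of the same number were paired. The replicate block left RpS5b called in Quad (limma adjusted p = 0.0210) and in Hexa (0.0393). For members whose counts hold few of their reads, edgeR tests only those reads: its calls of RpL27 lower in Quad (log2 -0.60 with TMM) and RpL38 lower in Hexa (log2 -0.60) rest on under 3% of the reads implied by RPKM.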
